A study of Mus musculus with 12 samples.

Results

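The serpins are a family of protease inhibitors, and 32 Serpin genes were measured among the 24674 genes of the deposited table of RNA abundance. They were taken as every listed gene whose symbol begins with Serpin, with pseudogenes marked -ps left out, so neither level nor response entered the choice. Of these, 31 were annotated as protein coding, and Serpina3h was annotated as a transcribed pseudogene. RNA was sequenced from organoids, small 3-dimensional epithelial cultures, grown from basal cells of the wild-type C57BL/6 mouse prostate. The 12 samples formed 4 groups of 3 replicates, given vehicle, UK5099, butyrate, or UK5099 and butyrate together (the combination). Entry of pyruvate into mitochondria is blocked by UK5099, and butyrate is a short-chain fatty acid that inhibits histone deacetylases. Nothing in the labels says whether replicates came from separate mice or cultures, so p-values measure the spread between these samples, which may be technical.

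A serpin traps its target by suicide: the protease cuts an exposed loop of the inhibitor, the loop inserts into the body of the serpin, and the protease is left bound and distorted. Clade B serpins lack a classical secretion signal and mostly act inside cells, where they restrain leaked lysosomal and granule proteases, and several are abundant in squamous epithelia. Clades A, C, D, E, F, G and I are mostly secreted and control clotting, fibrinolysis, complement and tissue proteases, while Serpinh1 of clade H inhibits no protease and is a collagen chaperone of the endoplasmic reticulum.

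The listed values were TPM, a measure of transcript abundance scaled to gene length and library size. Each behaved as a fragment number divided by the length of its gene in the genome, introns included. TPM was therefore compared only between samples of a gene, except for a limit of 1 TPM used to sort members. Between genes, levels were compared as fragments per kilobase of exon, scaled to library size and called exonic FPKM here. In vehicle the most abundant member was Serpinh1, at 80.1 ± 2.23 exonic FPKM (SD, n = 3), followed by Serpinb5 (maspin), at 59.7 ± 0.81. Serpinb6a, an inhibitor of cathepsin G, followed at 38.7 ± 0.237 exonic FPKM. These 3 genes held 78.5% ± 0.68 of the fragments of all Serpin genes in vehicle and 70.3% ± 1.51 under the combination. Of the 32 members, 15 reached a mean of 1 TPM in at least 1 group, and 17 stayed under it in every group. This limit also depends on the length of each gene in the genome, so it does not rank members by abundance. Serpin genes together took 0.0725% ± 0.000613 of all fragments in vehicle, 0.0898% ± 0.00103 under UK5099, 0.0678% ± 0.000768 under butyrate and 0.0939% ± 0.00133 under the combination.

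Depth was between 33251841 and 43498956 fragments per sample. UK5099 replicate 1 and combination replicate 1 stood apart from their replicates, with a chi-square per gene between 6.29 and 6.63 in the pairs that held them against 1.93 to 2.65 in the other pairs within groups. UK5099 replicate 1 also held 85 fragments of Alb, a liver transcript that was at 0 in every vehicle sample. Results were therefore also computed without these libraries. Basal markers were abundant in every group, with summed levels of 3679 to 3773 CPM (fragments scaled to library size) in vehicle, 10720 to 10904 under UK5099, 6250 to 6462 under butyrate and 11049 to 11340 under the combination. Markers of suprabasal squamous cells, 7 of 7 detected, were also summed, which gives most weight to the most abundant genes. The sum ran from 501 to 552 in vehicle, 1033 to 1176 under UK5099, 1405 to 1436 under butyrate and 1559 to 2020 under the combination. Luminal markers ran the other way, from 2452 to 2498 in vehicle to 1125 to 1203 under UK5099, 1080 to 1094 under butyrate and 578 to 594 under the combination. General epithelial markers, 2 of 2 measured, went from 3775 to 3825 in vehicle to 2681 to 2759, 2248 to 2276 and 1783 to 1830. The mitochondrial share of fragments was 2.59% ± 0.114 in vehicle, 2.64% ± 0.0923 under UK5099, 3.60% ± 0.155 under butyrate and 4.68% ± 0.198 under the combination. Fibroblast and smooth muscle markers, 7 of 8 measured, summed to 11.4 to 12.2 in vehicle, 14.6 to 17.1 under UK5099, 93.5 to 95.7 under butyrate and 17.8 to 21.1 under the combination, and Dcn alone had 173 to 273 fragments in vehicle and 3109 to 3456 under butyrate. Col1a1 had 94 to 149 in every sample. Immune markers, 4 of 8 measured, ran from 9.05 to 9.38 in vehicle up to 42.6 to 48.0 under the combination. The part of these markers and of the mitochondrial share in the results was not tested. Ptprc, which marks leukocytes, had at most 4 fragments in any sample.

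The first comparison was of each treatment with vehicle. RNA abundance was fitted with limma on log2(TPM + 1) over all 24674 genes, and a call needed a coefficient beyond 1 in either direction with an adjusted P below 0.01. Under UK5099, 2 of the 32 members were called, both higher (Serpinb11 and Serpinb1a), where 1.84% of all genes were called. Butyrate changed 5 members, where 3.54% of all genes were called: Serpinb11 and Serpinb1a were higher, and Serpina9, Serpina3g and Serpine2 were lower. The combination changed 8 members, where 6.42% of all genes were called. Serpinb11, Serpinb10, Serpinb3a and Serpinb1a were higher, and Serpina9, Serpina3g, Serpine2 and Serpinb9 were lower. Calls higher made up 0.928%, 1.13% and 1.79% of all genes under UK5099, butyrate and the combination, and calls lower 0.912%, 2.42% and 4.63%. Members rose and fell in equal number under the combination, and their median coefficient was 0.00 against -0.11 over all genes. The 3 comparisons share the vehicle samples. Without UK5099 replicate 1 and combination replicate 1, 3 members were called under UK5099, 5 under butyrate and 8 under the combination, with Serpinb2 in and Serpinb3a out of the last count. The shares of all genes called in that fit are not given here.

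The pseudocount of 1 compresses genes of low TPM, so the recovered fragments were also fitted with limma's voom, with library sizes set by the median of ratios. By voom UK5099 changed 8 members, 4 in each direction, against 5.79% of all genes. Butyrate changed 10 members, 3 higher and 7 lower, against 10.7% of all genes, and the combination changed 15, with 7 higher and 8 lower, against 14.1%. All genes were called higher in 3.05%, 7.06% and 8.95% of cases in these 3 comparisons, and lower in 2.74%, 3.59% and 5.18%. Between treatments voom called 5 members for the combination against butyrate (3.31% of all genes), 8 for the combination against UK5099 (8.12%) and 6 for butyrate against UK5099 (7.25%). The median coefficient of the members against vehicle was 0.28 under UK5099, -0.13 under butyrate and 0.46 under the combination, against 0.02, 0.05 and 0.08 over all genes. The scale also matters for abundant members. In TPM as deposited, genes of at least 1 TPM had a median coefficient of -0.12 under UK5099, -0.30 under butyrate and -0.41 under the combination. After the median of ratios it was 0.01, -0.02 and -0.01.

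**Figure D1:**
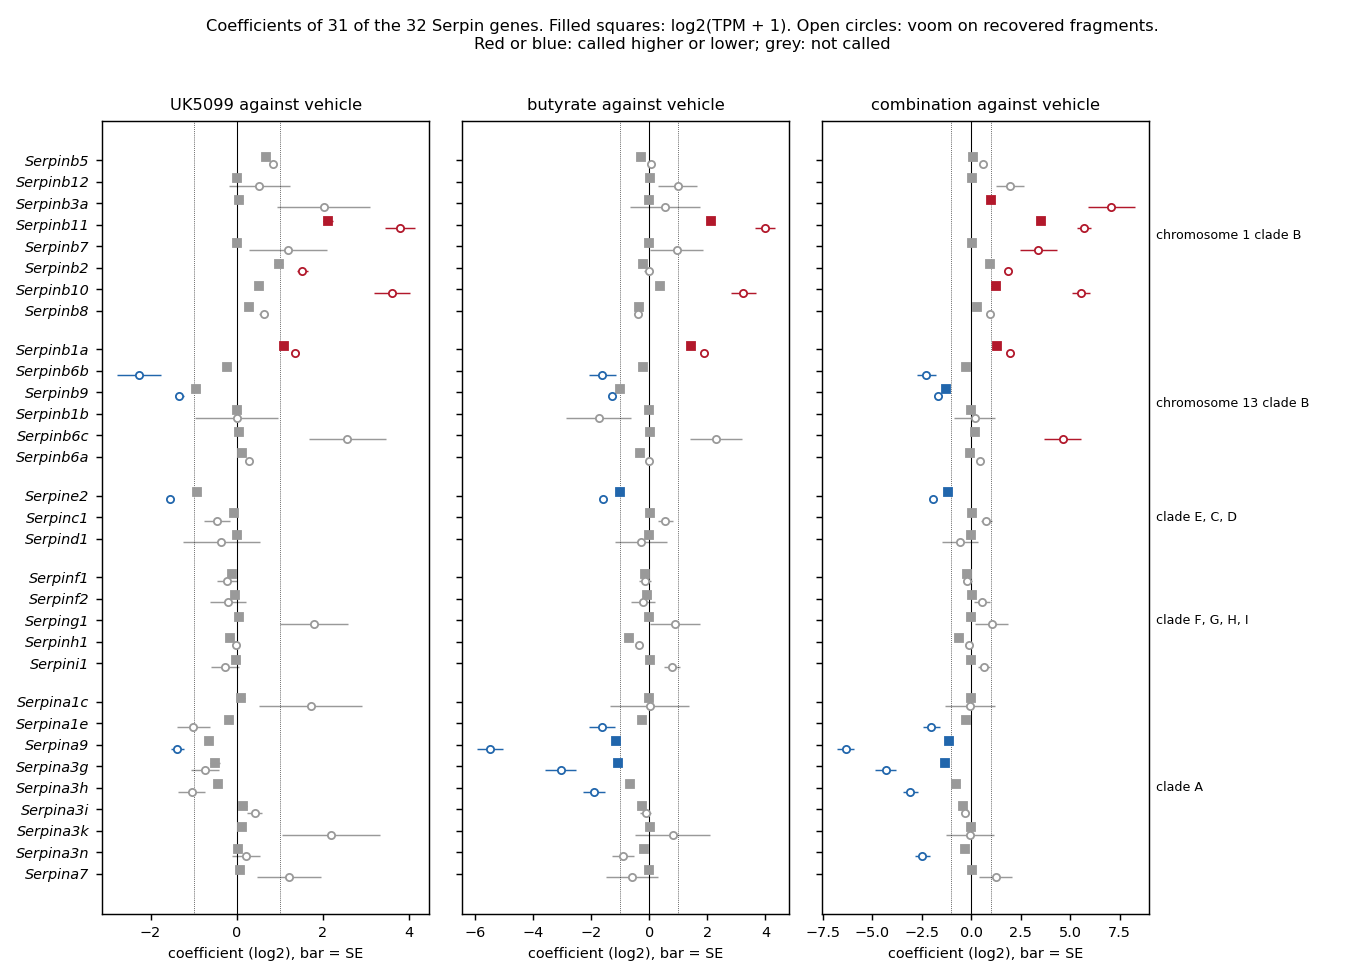
Coefficients against vehicle (log2, horizontal axes, with a separate range for each treatment) of 31 of the 32 Serpin genes, in rows grouped by clade and cluster. Filled squares are limma on log2(TPM + 1), open circles are voom on recovered fragments, bars are standard errors, dotted lines mark -1 and 1, and red or blue marks a call higher or lower. In the combination panel 8 squares and 15 circles are coloured, and the coloured points of the chromosome 1 genes all lie to the right of 0.

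Of the 8 clade B genes listed on chromosome 1, none was called lower against vehicle by either fit. All 8 had a coefficient above 0 under UK5099 and under the combination. Under butyrate 5 of the 8 did by limma and 6 by voom. By limma on log2(TPM + 1) 3 of the 8 were called higher under the combination, beside 1.79% of all genes, and by voom 5 were, beside 8.95%. They took 24.5% ± 0.226 of Serpin fragments in vehicle, 36.7% ± 0.811 under UK5099, 30.2% ± 0.505 under butyrate and 37.0% ± 0.721 under the combination. Single members weighed heavily in this share. Serpinb5 alone went from 22.6% in vehicle to 31.2% under UK5099 and 24.3% under the combination. Serpinb11 went from 0.225% to 2.30% and 8.09%. In a bulk culture, more cells of a type and more RNA per cell cannot be told apart. The summed squamous markers given above moved in the same direction, but the sum did not stand for each gene. It was higher under butyrate than under UK5099. In that comparison 0 of the 7 markers were called higher and 4 lower by either fit. Of all genes, 1.86% were called there by limma and 7.25% by voom. The part of these markers in these results was not tested.

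Serpinb11, a clade B serpin, had the largest coefficients of the family by limma on log2(TPM + 1) in each comparison with vehicle. That rank depended on the scale. By voom Serpina9 was larger in size, at -5.47 under butyrate and -6.33 under the combination, against 3.97 and 5.69 for Serpinb11. The table lists Serpinb11 at chr1:107288928-107308206 on the plus strand, with no build named, while the submitters' processing notes name GRCm39. Its TPM was 0.446, 0.542 and 0.323 in vehicle, 5.46, 4.83 and 5.39 under UK5099, 5.4, 5.26 and 5.04 under butyrate and 19.1, 13.5 and 14.2 under the combination. The groups did not overlap, except that UK5099 and butyrate covered the same range, and combination replicate 1 was the highest sample. Mean TPM was 11.96-fold that of vehicle under UK5099, 11.97-fold under butyrate and 35.6-fold under the combination. The limma coefficients were 2.12 for each single drug (SE 0.11, adjusted P = 5.13e-07 under UK5099 and 1.68e-07 under butyrate) and 3.52 for the combination (adjusted P = 3.53e-09). Against either drug alone the combination was higher by 1.40 on the log2 scale (limma, adjusted P = 1.39e-05 against butyrate and 3.71e-06 against UK5099). By this fit it was the only member called in both of those comparisons, where 0.908% and 1.97% of all genes were called. On the exonic scale the level went from 0.746 ± 0.182 FPKM in vehicle to 34.8 ± 6.83 under the combination.

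Serpinb10 (bomapin) also had its highest level under the combination, at far lower abundance. Its TPM was 0.0671, 0.0539 and 0.0237 in vehicle, 0.479, 0.436 and 0.597 under UK5099, 0.315, 0.425 and 0.305 under butyrate and 1.62, 1.34 and 1.59 under the combination. Every treated sample was above every vehicle sample, and every combination sample was above every sample of a single drug. Pooled fragments were 20 in vehicle and 969 under the combination, a ratio after scaling to library size of 43.0 (95% interval 27.7 to 70.7, counting error only). The limma coefficient reached 1 only under the combination (1.26, SE 0.055, adjusted P = 2.60e-08). By voom it was called in each comparison with vehicle, at 3.61 under UK5099, 3.24 under butyrate and 5.54 under the combination.

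Serpinb2 (PAI-2), an inhibitor of urokinase, lies next to Serpinb10 on the same strand, and the listed spans overlap by 6452 bases. Its TPM was 1.52, 1.41 and 1.67 in vehicle, 3.41, 3.82 and 4.76 under UK5099, 1.21, 1.03 and 1.39 under butyrate and 3.47, 3.99 and 4.34 under the combination. The samples given UK5099, alone or with butyrate, were all above the samples that were not. Serpinb2 was called between the combination and butyrate (1.16, limma adjusted P = 3.03e-05) and between butyrate and UK5099 (-1.17, adjusted P = 1.26e-05, where 1.86% of all genes were called). Against vehicle the coefficients of 0.97 under UK5099 and 0.96 under the combination fell just short of 1 (limma, adjusted P = 5.65e-05 and 2.55e-05), and by voom both were called, at 1.52 and 1.84. Under butyrate the limma coefficient was -0.20 (adjusted P = 0.155). Fragments of each gene were whole numbers in 8 of 12 samples while their sum was whole in 12 of 12. The sum was 7.34 ± 0.629 CPM in vehicle, 21.8 ± 3.33 under UK5099, 8.72 ± 0.725 under butyrate and 31.8 ± 2.48 under the combination.

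Serpinb3a belongs to the squamous cell carcinoma antigen group of cathepsin inhibitors. It was listed at 0 in all vehicle samples, and its TPM was 0.0804, 0 and 0.054 under UK5099, 0, 0 and 0.017 under butyrate and 1.26, 0.749 and 1.05 under the combination. In fragments this was 4, 0 and 3 under UK5099, 0, 0 and 1 under butyrate and 93, 50 and 74 under the combination, so all but 8 of its 225 fragments came from the combination. With 3 fragments over the vehicle samples as the floor, the combination was at least 64.2-fold higher. The limma coefficient was 1.01 (SE 0.075, adjusted P = 1.32e-06), barely past the limit of 1. It was 0.92 without combination replicate 1 and 0.99 without replicate 3, and the call then ended.

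**Figure D2:**
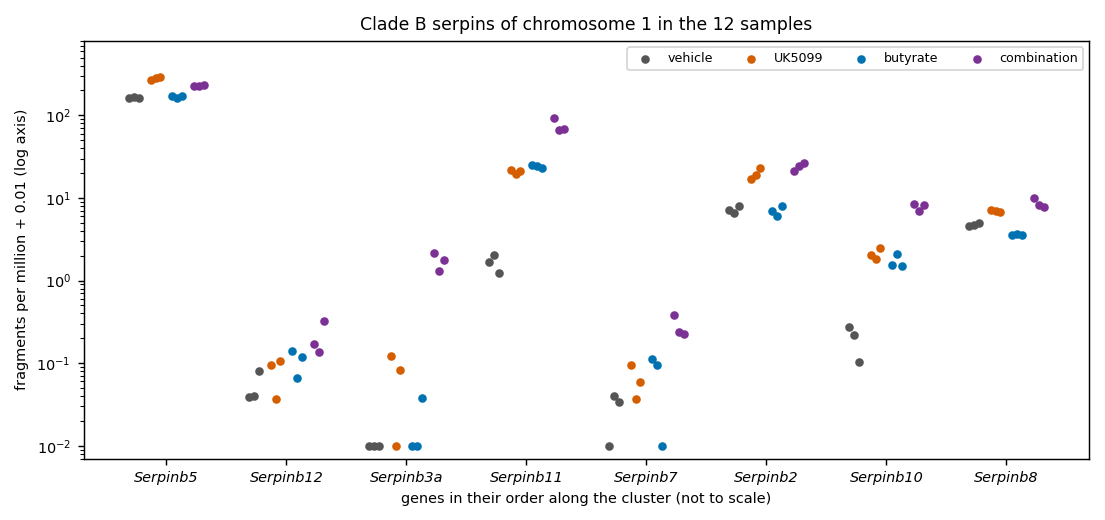
Level of the 8 clade B genes of chromosome 1 in each of the 12 samples, as CPM plus 0.01 on a log axis, in gene order (not to scale). Colours mark the groups. The combination samples are the highest of their gene for Serpinb3a, Serpinb11, Serpinb7 and Serpinb10, and the points at the bottom of the axis are samples with 0 fragments.

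The other 4 chromosome 1 genes ranged from the most abundant of the cluster to the least. Serpinb5, known as a tumour suppressor of breast and prostate epithelium, was the most abundant of the 8, with TPM of 37.9, 38.9 and 37.7 in vehicle, 58.6, 61.8 and 64.3 under UK5099, 32.1, 30.1 and 32.1 under butyrate and 39.9, 40.6 and 41.4 under the combination. The UK5099 samples were above all others, and the groups did not overlap. The limma coefficient under UK5099 was 0.67 (SE 0.036, adjusted P = 4.92e-07), under the limit of 1. Under butyrate it was -0.27 in TPM as deposited but 0.06 by voom, so its direction depended on the scaling. Under the combination the size depended on it too, with mean TPM 1.06-fold that of vehicle but a voom coefficient of 0.59 (SE 0.028). Serpinb8 is an inhibitor of furin in vitro. Its TPM ran from 1.16 to 1.23 in vehicle, from 1.64 to 1.69 under UK5099, from 0.723 to 0.726 under butyrate and from 1.52 to 1.91 under the combination, and voom called it 1.35 higher under the combination than under butyrate. Serpinb7 and Serpinb12 had 49 fragments each over the 12 samples. Serpinb7 had 2 in vehicle and 34 under the combination and was called by voom (3.39, limma-voom adjusted P = 0.00325). Serpinb12 had 5 in vehicle and 25 under the combination and was not called.

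The promoters of these genes are shown because several of them moved together. RefSeq promoters of the GRCm38.p6 build, 250 bases before to 50 after the start, were found for 26 of the 32 members. The AP-1 motif was searched as TGANTCA, a palindrome that reads the same on both strands and allows any middle base. This form is looser than the AP-1 site with C or G in the middle, and was in 7.81% of 32851 mouse promoters. It was in the promoters of 7 of the 8 chromosome 1 clade B genes, all but Serpinb3a, and of 1 of the 18 other members with a promoter, Serpina1c. The middle base was G in Serpinb7 and Serpinb8 and C in Serpina1c. In Serpinb2, Serpinb5, Serpinb10, Serpinb11 and Serpinb12 it was only A or T. The share of all promoters with C or G there was not counted. The TATA box letters TATAAA, on either strand, were in 13.6% of all promoters and in 6 of the 26 members, Serpinb2, Serpinb3a, Serpinb7 and Serpinb12 among them. A match is a run of letters and no binding was measured. The sequences below run 5′ to 3′ along the gene, with the motif matches in capitals. The Serpinb11 matches lie 181 and 76 bases before the start, the Serpinb10 match 54, and the Serpinb2 matches 94 for AP-1 and 29 for the TATA letters. The 1 Serpinb3a match, to the TATA letters, lies 65 bases before the start.
Serpinb11 (chr1:107362064-107362363, plus strand): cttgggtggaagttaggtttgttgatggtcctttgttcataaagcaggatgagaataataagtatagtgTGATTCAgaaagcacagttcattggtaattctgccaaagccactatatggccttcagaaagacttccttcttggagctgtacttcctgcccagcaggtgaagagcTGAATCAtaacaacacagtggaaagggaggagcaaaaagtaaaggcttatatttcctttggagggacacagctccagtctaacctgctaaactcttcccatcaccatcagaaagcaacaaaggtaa
Serpinb10 (chr1:107528753-107529052, plus strand): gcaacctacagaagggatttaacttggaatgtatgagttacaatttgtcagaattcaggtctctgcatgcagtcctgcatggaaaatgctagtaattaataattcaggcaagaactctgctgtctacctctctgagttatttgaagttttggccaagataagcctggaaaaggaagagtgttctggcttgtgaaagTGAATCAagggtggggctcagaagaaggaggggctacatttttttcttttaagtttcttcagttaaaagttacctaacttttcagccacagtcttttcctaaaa
Serpinb2 (chr1:107511173-107511472, plus strand): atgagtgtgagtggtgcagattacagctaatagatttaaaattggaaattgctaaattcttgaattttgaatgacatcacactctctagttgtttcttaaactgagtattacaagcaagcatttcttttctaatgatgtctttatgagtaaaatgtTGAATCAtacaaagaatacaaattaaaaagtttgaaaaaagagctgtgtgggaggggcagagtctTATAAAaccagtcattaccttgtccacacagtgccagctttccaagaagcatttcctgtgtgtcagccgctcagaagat
Serpinb3a (chr1:107052254-107052553, minus strand): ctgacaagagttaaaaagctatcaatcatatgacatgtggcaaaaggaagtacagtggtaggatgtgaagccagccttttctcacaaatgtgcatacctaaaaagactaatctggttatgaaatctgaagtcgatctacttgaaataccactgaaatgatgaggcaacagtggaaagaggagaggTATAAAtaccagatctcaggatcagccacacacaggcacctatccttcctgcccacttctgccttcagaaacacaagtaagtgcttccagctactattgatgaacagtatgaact

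On chromosome 13, 6 clade B genes were listed, and called members went in both directions. Serpinb1a, an inhibitor of neutrophil elastase and cathepsin G, had TPM of 6.28, 5.97 and 6.15 in vehicle, 14.8, 13.5 and 14.3 under UK5099, 18.8, 17.1 and 18.5 under butyrate and 19.3, 14.7 and 16.7 under the combination. Every treated sample was above every vehicle sample, and the combination overlapped both single drugs. The limma coefficients were 1.09 under UK5099 (SE 0.081, adjusted P = 4.10e-06), 1.42 under butyrate (adjusted P = 2.49e-07) and 1.32 under the combination (adjusted P = 2.81e-07). The combination differed from butyrate by -0.10 (limma, adjusted P = 0.395) and from UK5099 by 0.23 (adjusted P = 0.039), and neither was called.

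Serpinb9, the granzyme B inhibitor that protects cells from their own cytotoxic granules, went the other way. Its TPM was 2.96, 2.82 and 2.92 in vehicle, 0.991, 0.958 and 1.15 under UK5099, 0.86, 1.06 and 0.955 under butyrate and 0.647, 0.589 and 0.662 under the combination. All vehicle samples were above all treated samples, the single drugs overlapped, and the combination was the lowest group. The limma coefficient was -1.26 under the combination (SE 0.044, adjusted P = 5.80e-09). With the single drugs it was -0.94 and -0.99, which voom called at -1.33 and -1.26. Mean TPM in vehicle was 4.58-fold that of the combination. With a median-of-ratios scaling of TPM the combination coefficient was -0.96, and the call ended on that scale.

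Serpinb6a had the highest fragment count of the family and moved least among the abundant clade B genes. Its TPM was 12.7, 12.9 and 12.6 in vehicle, 13.8, 13.8 and 14.2 under UK5099, 9.95, 9.83 and 9.96 under butyrate and 12.6, 12.1 and 12.1 under the combination. The butyrate samples were the lowest and the UK5099 samples the highest. Coefficients against vehicle lay between -0.33 and 0.12 by limma, and that of the combination turned from -0.05 to 0.44 by voom. Its span overlaps those of Nqo2 and Ripk1 on the opposite strand, and whether fragments had been divided between them could not be assessed. Of its low paralogs, Serpinb6b had 72 fragments in vehicle and 20, 23 and 15 under UK5099, butyrate and the combination, and voom called it lower in all 3. Serpinb6c had 5 fragments in vehicle, 32 under UK5099, 26 under butyrate and 136 under the combination, which voom called (4.63, limma-voom adjusted P = 0.000166). Serpinb1b had 17 fragments in all, and no difference was detectable at this depth.

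**Figure D3:**
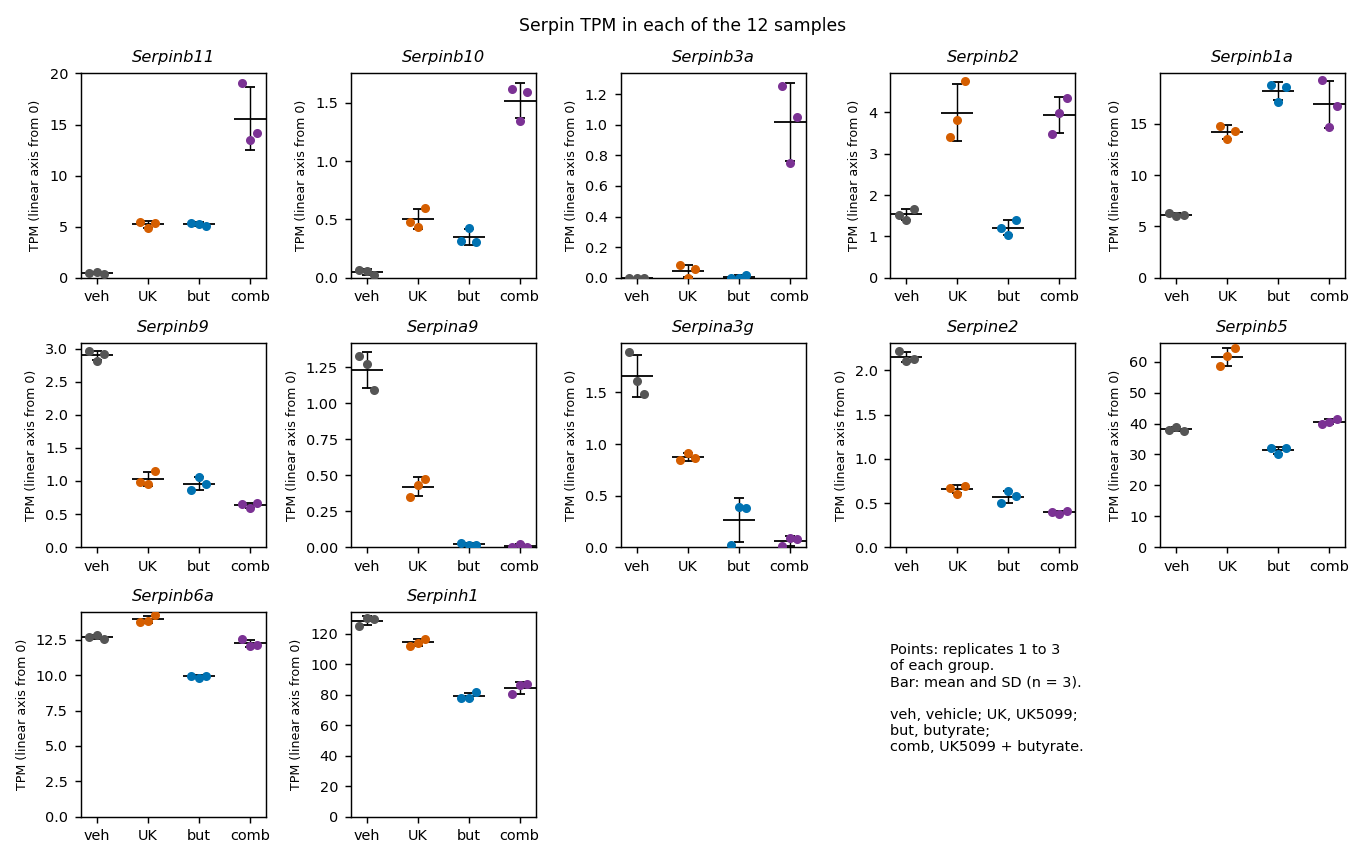
TPM of 12 Serpin genes in each of the 12 samples, 1 panel per gene on a linear axis from 0. Points are replicates, and bars are the mean and SD of 3 replicates. Serpinb9, Serpina9, Serpina3g and Serpine2 are highest in vehicle, with all 3 vehicle points above every treated point, while Serpinb11, Serpinb10 and Serpinb1a are lowest there.

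Serpine2 (protease nexin-1), which inhibits thrombin, urokinase and tissue plasminogen activator outside the cell, had TPM of 2.22, 2.1 and 2.13 in vehicle, 0.671, 0.606 and 0.697 under UK5099, 0.501, 0.633 and 0.578 under butyrate and 0.401, 0.377 and 0.411 under the combination. All treated samples were below all vehicle samples, and the combination was below both single drugs. Mean TPM in vehicle was 3.27-fold that of UK5099, 3.77-fold that of butyrate and 5.43-fold that of the combination. The limma coefficients were -0.93, -1.01 and -1.17 (SE 0.032, adjusted P = 3.32e-08, 6.67e-09 and 1.28e-09), of which the first missed the limit of 1. After a median-of-ratios scaling of TPM the butyrate coefficient was -0.79 and that of the combination -0.93, and the butyrate coefficient was -0.99 without vehicle replicate 1 and -0.97 without butyrate replicate 1, each of which ended the call. By voom the 3 coefficients were -1.56, -1.59 and -1.94, and all were called.

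Proteases that serpins act on were read from the same samples. Plat, tissue plasminogen activator, had a mean of 3.49 ± 0.283 TPM in vehicle, 0.747 ± 0.138 under UK5099, 0.89 ± 0.0747 under butyrate and 0.625 ± 0.0865 under the combination, and was called lower in all 3 comparisons. Plau, urokinase, went from 165 ± 3.43 TPM in vehicle to 156 ± 4.86 under UK5099, 48.3 ± 1.41 under butyrate and 69.2 ± 1.81 under the combination. It was called lower under butyrate (-1.75) and the combination (-1.24) but not under UK5099, and by voom the combination coefficient of -0.76 did not pass the limit. Plaur, the urokinase receptor, went from 38.9 ± 0.282 TPM to 15.2 ± 0.353 under butyrate and 11.6 ± 0.198 under the combination, both called lower. Of 26 measured proteases that serpins inhibit, 2 were called higher and 3 lower under UK5099, 3 and 5 under butyrate, and 4 and 7 under the combination (by voom 3 and 3, 7 and 3, and 8 and 6). Of all genes, 0.928% were called higher and 0.912% lower under UK5099, 1.13% and 2.42% under butyrate, and 1.79% and 4.63% under the combination. By voom these shares were 3.05% and 2.74%, 7.06% and 3.59%, and 8.95% and 5.18%. Among the proteases, C1s1, a complement protease held by Serping1, rose from 1.33 ± 0.119 TPM to 8.48 ± 0.338 under butyrate and 13.5 ± 0.784 under the combination. Serping1 itself had at most 14 fragments in any sample.

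Serpinc1 (antithrombin), Serpind1, Serpinf1, Serpinf2, Serping1 and Serpini1 are secreted serpins of plasma or nerve, and all stayed under 1 TPM in every group. None was called against vehicle by either fit. By voom Serpinc1 was higher under butyrate and under the combination than under UK5099 (1.02 and 1.22), and Serpini1 was higher under butyrate than under UK5099 (1.07). Serpinc1 fragments were whole in 0 of 12 samples and overlap those of Zbtb37 on the opposite strand, with which their sum was whole in 11 of 12. Fragments over the 12 samples ran from 15 for Serpind1 to 487 for Serpinf1. Serping1 had 72 in all, so for both only large differences could have been detected. Of 9 measured receptors and cofactors of serpins, 2 were called higher and 0 lower under UK5099, 1 and 1 under butyrate, and 2 and 2 under the combination, by either fit. In either direction 1.84%, 3.54% and 6.42% of all genes were called by limma, and 5.79%, 10.7% and 14.1% by voom. Thbd, thrombomodulin, went from 0.237 ± 0.03 TPM in vehicle to 23.2 ± 1.89 under UK5099, 3.44 ± 0.681 under butyrate and 24.4 ± 1.03 under the combination. Procr, the receptor of protein C, went from 29.0 ± 0.888 TPM to 82.8 ± 1.5, 38.1 ± 1.32 and 105 ± 4.46, and was called under UK5099 and the combination.

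Serpinh1 (HSP47) had the highest level of the family in vehicle. Its TPM was 125, 130.5 and 129 in vehicle, 112, 114 and 117 under UK5099, 77.5, 77.9 and 81.4 under butyrate and 80.1, 86.5 and 86.8 under the combination. Butyrate samples overlapped combination samples, and both groups lay below UK5099 and vehicle. The limma coefficients of -0.69 under butyrate and -0.60 under the combination (adjusted P = 9.69e-08 and 1.68e-07) were under the limit of 1, and by voom they were -0.36 and -0.11. Of 27 genes of collagens and their folding, 1 was called higher and 0 lower under UK5099, 0 and 1 under butyrate, and 1 and 2 under the combination (by voom 1 and 1, 1 and 4, and 1 and 4). Over all genes the shares called in either direction were 1.84%, 3.54% and 6.42% (by voom 5.79%, 10.7% and 14.1%). Col7a1, the anchoring fibril collagen, went from 72.3 ± 1.79 TPM in vehicle to 19.4 ± 0.587 under butyrate and 13.1 ± 0.684 under the combination. Col17a1, a hemidesmosome collagen, went from 59.2 ± 0.668 TPM to 197 ± 6.13 under UK5099 and 181 ± 7.14 under the combination.

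Clade A, the mostly secreted antitrypsin and antichymotrypsin group, had no member called higher against vehicle by either fit. Its 9 genes took 1.41% ± 0.0971 of Serpin fragments in vehicle, 0.724% ± 0.0552 under UK5099, 0.414% ± 0.0589 under butyrate and 0.199% ± 0.000377 under the combination. By voom 1, 4 and 5 of the 9 were called lower under UK5099, butyrate and the combination, beside the 2.74%, 3.59% and 5.18% of all genes called lower. Serpina9 (centerin), best known from germinal centre B cells, had TPM of 1.33, 1.27 and 1.09 in vehicle, 0.348, 0.432 and 0.477 under UK5099, 0.0282, 0.0122 and 0.018 under butyrate and 0.00477, 0.0212 and 0.00502 under the combination. Its fragments were 167, 155 and 173 in vehicle and 1, 4 and 1 under the combination. The vehicle samples were the highest and the UK5099 samples lay between them and the samples given butyrate. Scaled to library size, pooled fragments in vehicle were 49.7-fold those under butyrate (95% interval 26.8 to 104) and 92.9-fold those under the combination (42.4 to 254, counting error only). The limma coefficients were -1.13 (SE 0.042, adjusted P = 1.65e-08) and -1.14 (adjusted P = 8.18e-09), with the butyrate coefficient at -0.99 after a median-of-ratios scaling, which ended that call. The voom coefficients were -5.47 and -6.33. The combination and butyrate had 6 and 10 fragments, and a difference between them was not detectable at this depth. The leukocyte marker Ptprc, at 0, 0 and 4 fragments in vehicle, was near 0 where Serpina9 was highest.

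Serpina3g (Spi2A), an inhibitor of cysteine cathepsins, had TPM of 1.89, 1.61 and 1.48 in vehicle, 0.845, 0.913 and 0.862 under UK5099, 0.0218, 0.394 and 0.377 under butyrate and 0.00827, 0.0884 and 0.0842 under the combination. Vehicle samples were the highest, UK5099 samples were next, and butyrate replicate 1 was far below the other butyrate samples. The limma coefficient was -1.08 under butyrate (adjusted P = 1.71e-05) and -1.32 under the combination (SE 0.11, adjusted P = 2.95e-06). Without butyrate replicate 1 the butyrate coefficient was -0.94, and after a median-of-ratios scaling it was -0.91, and the call ended in both. By voom the coefficients were -3.04 and -4.31, both called. The Serpina3 genes are related copies, and how alike their sequences are was not compared here. Of 12 samples, fragments were whole in only 2 for Serpina3g, 2 for Serpina3h and 1 for Serpina3i, but in 12 for Serpina3n. Reads of Serpina3g, Serpina3h and Serpina3i may therefore have been divided among copies, and those of Serpina3g also with a pseudogene that it overlaps. Serpina3h fell with Serpina3g by voom (-1.91 under butyrate and -3.09 under the combination), as did Serpina3n under the combination (-2.46). Serpina3i had TPM between 0.723 and 1.75 and was not called against vehicle. Serpina1e was called lower by voom under butyrate (-1.62) and the combination (-2.01), from 69 fragments in vehicle to 23 and 17.

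Serpina1c and Serpina3k, transcripts typical of liver, were almost confined to UK5099 replicate 1. Serpina1c had 19 fragments there and none after rounding in the other 11 samples. Serpina3k had 16 there, 1 in UK5099 replicate 3 and 2 in butyrate replicate 1. The same library held 85 of the Alb fragments, against 13 and 2 in the other UK5099 samples. Liver markers, 4 of 5 measured, summed to between 0.122 and 3.11 under UK5099 and to at most 0.18 in each other sample, and their part in these values was not tested. These serpins were not called in any comparison with vehicle, and the values are those of 1 library. Serpina7, the thyroxine-binding globulin, had 26 fragments in all.

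The interaction term asked whether the effect of the combination differed from the sum of the single effects on the log2 scale. By limma on log2(TPM + 1) only Serpinb1a was called among the members (-1.19, SE 0.11, adjusted P = 8.35e-05), where 1.01% of all genes were called. By voom 3 members were called, where 2.67% of all genes were. Serpinb1a (-1.31) and Serpinb11 (-2.07, limma-voom adjusted P = 0.000115) rose less under the combination than the single rises summed. Serpine2 (1.20, limma-voom adjusted P = 1.61e-08) fell less than the single falls summed. Smaller terms with an adjusted P under 0.01 by voom included those of Serpinb9 (0.90), Serpinb8 (0.72), Serpinb5 (-0.32), Serpinh1 (0.27) and Serpinb6a (0.17). For Serpinb10 the sign depended on the scale, at 0.38 by limma on log2(TPM + 1) and -1.31 by voom. For Serpinb3a, with 0 fragments in vehicle, the term was 0.94 by limma and 4.54 by voom (adjusted P = 0.0177), and it was not called by either fit.

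**Figure D4:**
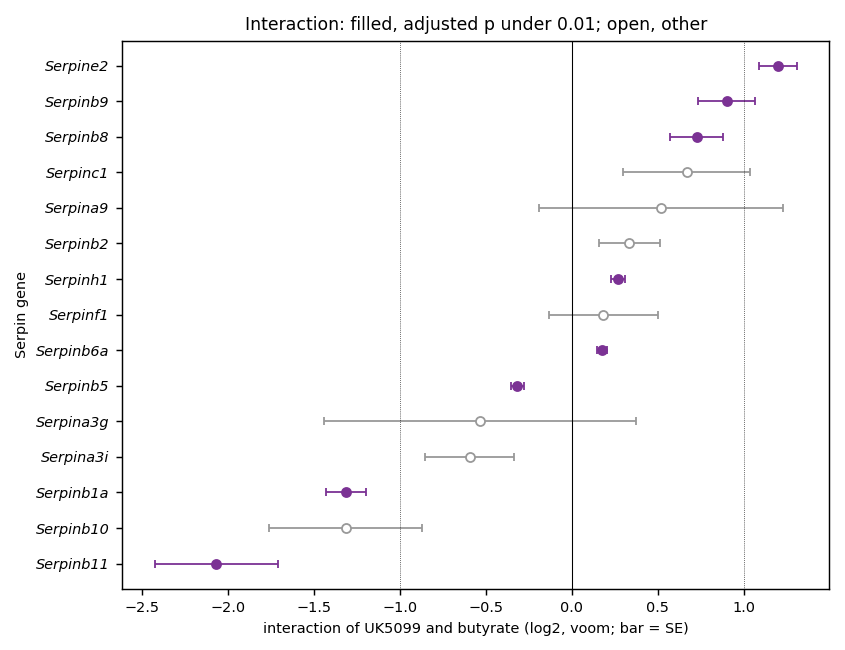
Interaction coefficient of UK5099 and butyrate by voom (log2, horizontal axis) for 15 Serpin genes with at least 300 fragments in all, with standard errors. Filled points have an adjusted P under 0.01, open points do not, and dotted lines mark -1 and 1. Serpinb11 and Serpinb1a are filled and lie below -1, Serpinb10 lies below -1 with an open point, Serpine2 lies above 1, and 9 of the 15 genes lie above 0.

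Protease inhibitors of other families were measured for comparison. Of 26, 4 were called higher and 0 lower under UK5099, 4 and 1 under butyrate, and 6 and 1 under the combination (by voom 7 and 2, 7 and 2, and 10 and 4). Over all genes the shares called, in either direction, were 1.84%, 3.54% and 6.42% (by voom 5.79%, 10.7% and 14.1%). Stfa3, a stefin that inhibits cysteine cathepsins, went from 0.319 ± 0.0466 TPM in vehicle to 9.85 ± 0.591 under UK5099, 8.22 ± 0.255 under butyrate and 84.0 ± 3.36 under the combination. Csta1, another stefin, went from 1.98 ± 0.103 TPM to 18.8 ± 1.53, 12.2 ± 0.515 and 44.3 ± 6.34. Slpi, a secreted inhibitor of leukocyte elastase, went from 0.709 ± 0.045 TPM to 3.42 ± 0.0948, 3.6 ± 0.186 and 17.4 ± 0.358. All 3 were called higher in each comparison with vehicle and in the combination against either drug alone, as Serpinb11 was. Wfdc18 fell under butyrate and the combination, from 1.48 ± 0.494 TPM in vehicle to 0.0329 ± 0.0285 under butyrate, and was listed at 0 in the combination.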

How the data were processed

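RNA of 12 mouse organoid samples was sequenced, and 1 table of TPM values for 24674 genes was deposited. Per the labels, a KAPA RNA Hyper kit with rRNA depletion, mRNA enrichment and dUTP strand marking was used. For these organoids the methods of the study name fastp, STAR, GRCm38 and RSEM, while the submitters' processing notes name GRCm39, STAR 2.7.9a and Partek, and the table names no build. The TPM values that the authors deposited equal fragments divided by the genomic span of the gene. Fragments were therefore recovered from the steps between low values, and 59.0 to 61.3% of values came out whole within 0.02, or 75.4 to 76.7% of values of coding genes under 1000 fragments. Values above 1000 fragments were not checked, and why values failed to be whole was not tested. Intervals and floors cover counting error only.

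The main fit was limma 3.58.1 in R 4.3.3 on log2(TPM + 1), with terms for UK5099, butyrate and their interaction over 12 samples and Benjamini-Hochberg adjustment over all genes. The terms and call limits follow the study's model, and the pseudocount was chosen here. A gene was called at an adjusted P under 0.01 and an absolute coefficient over 1. The 12 members named by rule were those with a group mean of at least 1 TPM called in any comparison by this fit, and those with the highest levels. Every other gene given with values, members and list genes alike, was named after its values were seen. Members, lists and tests were chosen with earlier results of these data known. The alternatives were other pseudocounts, a filter on low values, 2 other scalings, a trended and robust prior, voom on recovered fragments, exonic length, no limit on the coefficient, fits of only the groups compared, a replicate block and leaving out each replicate. Replicate numbers did not pair the samples, as same-numbered samples deviated with a median correlation of -0.0044. On simulated data over 24674 genes the main fit called 49 of 63 genes changed 4-fold and 66 of 75 changed 8-fold by UK5099. The changed genes were drawn only from those above a minimum of fragments, and all genes had the same spread beyond counting error. The simulation therefore gives no rate for members with few fragments. Promoter sequences are those of RefSeq on GRCm38.p6. Protein sequences were not used here, and the values of 1 member are not reported here. Tables were handled in Python 3.11.15 with pandas 2.3.3, numpy 2.4.6 and scipy 1.17.1, and plots drawn in matplotlib 3.10.9.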

Additional observations from a re-analysis of the deposited data

Results flagged for a closer look

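Serpinb1a had an interaction of -1.19 on the log2(TPM + 1) scale (limma), where the effect of UK5099 differed between samples with and without butyrate: its coefficient was 1.09 in the absence of butyrate and -0.10 in its presence.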

How the results depend on the processing

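The number of Serpin genes called moved most when the limit on the coefficient was dropped. In the order UK5099, butyrate and combination against vehicle, combination against butyrate, combination against UK5099, butyrate against UK5099 and interaction, 2, 5, 8, 2, 1, 1 and 1 members were called. A pseudocount of 0.1 TPM gave 8, 10, 14, 5, 7, 3 and 5, where 4.19%, 7.92%, 13.3%, 2.21%, 5.26%, 4.78% and 2.1% of all genes were called. One of 0.01 TPM gave 7, 8, 15, 7, 9, 4 and 3, where 5.72%, 10.4%, 16.7%, 3.06%, 7.47%, 6.78% and 2.43% were. Voom gave 8, 10, 15, 5, 8, 6 and 3, and without UK5099 replicate 1 and combination replicate 1 it gave 8, 10, 14, 5, 8, 4 and 4; leaving these out was chosen after seeing the data. With no limit on the coefficient the counts were 15, 16, 17, 11, 14, 12 and 11, where 33.0%, 45.6%, 51.0%, 27.5%, 43.0%, 37.5% and 13.4% of all genes were called. Exonic length gave 7 with UK5099, 4 and 5 for the combination against butyrate and UK5099, 2 for butyrate against UK5099 and 4 for the interaction, where 2.88%, 1.52%, 2.93%, 2.81% and 1.59% of all genes were called. Dropping genes with a mean under 1 TPM left 2 with butyrate and 3 with the combination, where 6.25% and 11.2% of the genes kept were called. Butyrate called 2 after a median-of-ratios scaling (3.05% of all genes) and 3 after quantile normalisation (2.96%), and either scaling gave 4 for the combination against butyrate, 2 against UK5099 and 2 for the interaction, where between 0.965% and 1.8% of all genes were called. Leaving out each replicate gave 2 to 3, 3 to 6, 7 to 8, 2 to 3, 1 to 2, 1 to 1 and 1 to 2. The low of 3 came without butyrate replicate 1, and 2 for the combination against UK5099 and for the interaction without combination replicate 2. The replicate block gave 2, 5, 8, 2, 1, 1 and 1 and changed no call. For the fits that left out samples and for the replicate block, the shares of all genes called are not given here. Those counts therefore do not set the members against all genes.

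Of the coefficients of named genes under an alternative, 918 kept their direction and side of the threshold, 65 passed it newly, 14 no longer passed and 12 turned. The alternatives counted include the fits leaving out each replicate. They also include the main fit with no limit on the coefficient, where passing newly means only an adjusted P under 0.01. Those that turned were at most 0.090 with butyrate and at most 0.44 with the combination. With butyrate, Serpinb2 was 0.011 after median of ratios, Serpinb5 was 0.080 after median of ratios, 0.090 after quantile normalisation and 0.059 by voom (0.061 without both libraries), and Serpinb6a was 0.0054 and 0.016 after the 2 scalings. With the combination, Serpinb6a was 0.43 after median of ratios, 0.41 after quantile normalisation, 0.44 by voom (0.42 without both libraries) and 0.071 by exonic length. The cause was not tested. Members with under 100 fragments in all, 8 of the 32, allow only large differences to be detected.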
